A study of Mus musculus with 6 samples.

Results

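The Gimap genes encode GTPases of the immunity-associated protein family, a set of small guanine-nucleotide-binding proteins made mainly by lymphocytes. The 8 mouse members measured here (Gimap1, Gimap3, Gimap4, Gimap5, Gimap6, Gimap7, Gimap8 and Gimap9) were found by their gene symbols among the 23415 usable gene entries of each of the 6 deposited tables. The family was chosen by its FPKM at day 6, because Gimap6 stood higher in the NLRP3-deficient library after 6 days of T helper type 2 (Th2) culture. The genotype values of that day are therefore given as a description, with no test. All 8 members were found in every table.

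The libraries came from CD4 T cells of C57/Bl6j mice at an age of 7 weeks. The mice were wild-type (WT) or NLRP3-/- (NLRP3KO), the latter lacking the sensor of the NLRP3 inflammasome. For each genotype there was 1 library of naive cells isolated from spleen and lymph nodes, 1 of cells cultured for 3 days and 1 of cells cultured for 6 days. Cultures were run on plates coated against CD3 and CD28 with 10 ng/ml IL-4 and an antibody that blocks interferon gamma. RNA for the 4 Th2 libraries was depleted of ribosomal RNA, whereas mRNA was purified for the 2 naive libraries, so stage and library preparation cannot be told apart in any comparison of Th2 with naive cells. With 1 library per group no replicate error exists, no p-value is given, and every difference is one between libraries.

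Several Gimap proteins sit on intracellular membranes, and the family is known chiefly for keeping mature lymphocytes alive. Loss of Gimap5 or Gimap1 depletes peripheral T cells in mice, and Gimap4 and Gimap3 have been placed in the control of T cell death and survival. Several members are abundant in resting T cells and are turned down when T cells are activated. The genes lie side by side in 1 cluster, where they arose by duplication.

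Depth differed widely. Estimated fragments on genes numbered 1577187 (naive), 25006 (day 3) and 26141 (day 6) in WT, and 1358933, 21936 and 4561 in NLRP3KO, whose day 6 library was the shallowest. Nlrp3 reached an FPKM of 0.0569 in naive WT. Since 5 libraries, of both genotypes, listed it at 0, its loss could not be checked. Of 11 T cell marker genes, 11 were above 0 in both naive libraries and both WT Th2 libraries, 10 in NLRP3KO at day 3 and 8 in NLRP3KO at day 6, where Cd3g, Cd5 and Lck were listed at 0. The FPKM of Cd4 in the WT libraries were 109 (naive), 6.74 (day 3) and 14.4 (day 6), and in the NLRP3KO libraries 177, 12.8 and 2.62. Markers of other cells were present in the naive libraries, with summed FPKM of 84.3 (WT) and 40.7 (NLRP3KO) for 7 B cell genes, 27.5 and 25.9 for 7 myeloid genes, 60.9 and 42.5 for 7 CD8 T and NK cell genes, and 837 and 399 for 6 erythroid genes. In the Th2 libraries all of these were listed at 0 except Cd79b in WT at day 3 (1.57) and Gzma in NLRP3KO at day 3 (2.87).

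The members Gimap3, Gimap4 and Gimap6 had the highest FPKM in both naive libraries, and the 250 bases upstream of their transcription starts are shown for that reason. The sequences are from RefSeq on GRCm38.p6, a later build than the mm9 build of the expression tables, and run 5′ to 3′ as transcribed, ending at the base before the start. Gimap4 is at chr6:48684328-48684577 on the plus strand, Gimap6 at chr6:48708245-48708494 on the minus strand and Gimap3 at chr6:48770852-48771101 on the minus strand. Capitals mark GGAAG or its reverse complement CTTCC, the core bound by ETS factors.
Gimap4: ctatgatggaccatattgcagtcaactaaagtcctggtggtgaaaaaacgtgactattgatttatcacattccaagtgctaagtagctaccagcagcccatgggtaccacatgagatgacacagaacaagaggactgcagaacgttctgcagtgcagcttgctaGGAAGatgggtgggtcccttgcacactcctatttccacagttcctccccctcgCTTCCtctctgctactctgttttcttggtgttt
Gimap6: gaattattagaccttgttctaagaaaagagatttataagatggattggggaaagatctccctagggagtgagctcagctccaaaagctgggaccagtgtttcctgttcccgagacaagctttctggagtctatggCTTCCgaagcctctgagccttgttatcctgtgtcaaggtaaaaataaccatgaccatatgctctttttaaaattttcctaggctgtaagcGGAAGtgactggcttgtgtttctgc
Gimap3: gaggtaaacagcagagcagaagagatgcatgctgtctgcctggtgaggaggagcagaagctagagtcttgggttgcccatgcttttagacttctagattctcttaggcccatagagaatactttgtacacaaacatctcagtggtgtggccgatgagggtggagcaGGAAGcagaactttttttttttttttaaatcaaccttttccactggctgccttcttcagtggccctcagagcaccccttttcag

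The ETS core began 86 and 33 bases before the start in Gimap4, 115 and 25 bases before it in Gimap6, and 84 bases before it in Gimap3. All 8 members had a RefSeq entry, Gimap8 with 2 windows, and 8 of these 9 windows held the core on at least 1 of the 2 strands, against 64.1% of all 32851 windows of that length. The RUNX motif TGTGGT (reverse ACCACA) was in the windows of Gimap1, Gimap4 and Gimap7 and in 14.0% of all windows. The FOXO motif GTAAACA (reverse TGTTTAC) was in that of Gimap3 and in 3.17% of all, and the TCF1 motif CTTTGA (reverse TCAAAG) in 0 of the 9 and in 13.8% of all. The KLF2 motif CACCC (reverse GGGTG) was in windows of 5 members and in 52.0% of all, and the TATA box TATAAA (reverse TTTATA) in that of Gimap6 and in 12.4% of all. No motif listed here contains another. These are letter matches and not binding sites. The share of G and C ran from 43.6% to 61.2% over the 9 windows, against a median of 52.4% over all.

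In naive WT cells Gimap4 was the most abundant member per transcript length, with an FPKM of 320 (deposited bounds 299 to 342). FPKM corrects fragment numbers for transcript length and library size, and the bounds are the confidence limits deposited with it. Gimap3 followed at 224 and Gimap6 at 220, then Gimap1 at 62.0, Gimap8 at 55.6, Gimap9 at 48.2, Gimap7 at 44.6 and Gimap5 at 14.2. The highest member was 22.5 times the lowest. Bounds of neighbours in this order were apart between Gimap4 and Gimap3, between Gimap6 and Gimap1, and between Gimap7 and Gimap5, and overlapped elsewhere. In naive NLRP3KO cells Gimap3 led with 339, followed by Gimap6 with 306, Gimap4 with 293, Gimap1 with 93.7, Gimap8 with 77.7, Gimap9 with 66.5, Gimap7 with 33.4 and Gimap5 with 25.1. Here the highest was 13.5 times the lowest, and neighbours were apart between Gimap4 and Gimap1 and between Gimap9 and Gimap7. The naive FPKM of Gimap3 and Gimap6 lay slightly above their own upper bounds (224.16 and 217.67 in WT, 338.23 and 302.37 in NLRP3KO), so these bounds do not enclose the values. Gimap3, Gimap4 and Gimap6 together made up 77.3% of the family's summed FPKM in naive WT and 76.0% in naive NLRP3KO.

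**Figure D1:**
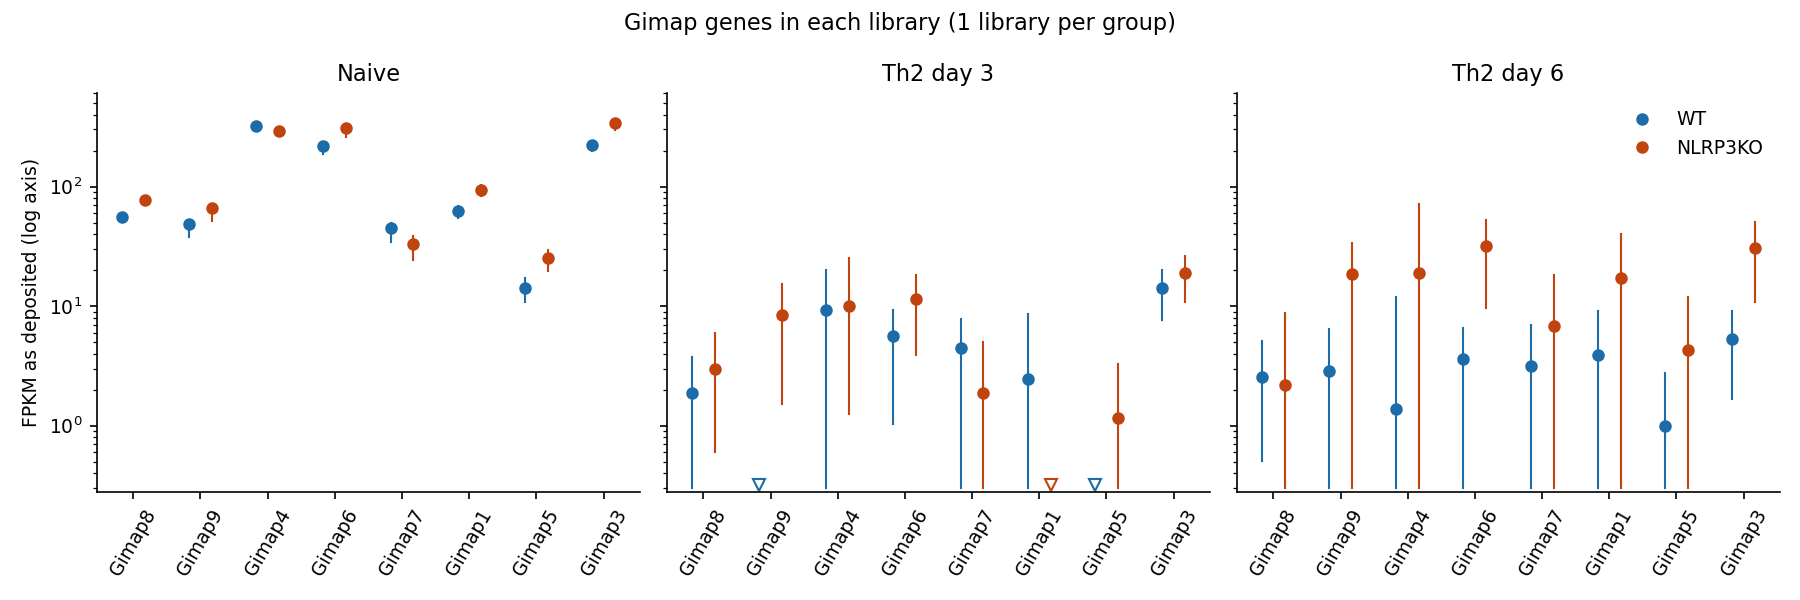
FPKM of each Gimap gene as deposited (log axis), by stage and genotype, with genes in chromosome order. Points are single libraries, vertical lines the deposited bounds (those reaching 0 are drawn to the lower edge), and open triangles genes listed at 0. The naive levels run from 14.2 to 339, while no Th2 level exceeds 31.6, with no further scaling between libraries.

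The 8 genes span 124 kb of chromosome 6 on mm9. In order they are Gimap8 (48597233 to 48610874), Gimap9 (48626134 to 48628703), Gimap4 (48634577 to 48642061), Gimap6 (48651582 to 48658243), Gimap7 (48668620 to 48674635), Gimap1 (48689046 to 48693794), Gimap5 (48696196 to 48704199) and Gimap3 (48714463 to 48720850). These spans cover each whole gene, introns included. In naive cells every Gimap gene was above every gene around the cluster. Of the 17 other gene entries within 250 kb, 6 were listed at 0 in every library, and the highest value was an FPKM of 8.48 for Lrrc61 in naive NLRP3KO. The lowest naive value of any Gimap gene was 14.2. The genes next to Gimap3, Tmem176b and Tmem176a, which encode membrane proteins, had naive FPKM of 5.39 and 2.49 (WT) and of 6.88 and 4.25 (NLRP3KO). Both were listed at 0 in all 4 Th2 libraries. Among the Th2 libraries the highest neighbour was Zfp467, a zinc finger gene, at 4.69 in WT at day 6. Of the 3 abundant members, Gimap4 and Gimap6 lie inside the cluster and Gimap3 at its end. Gimap3 and Gimap5 share 50-base stretches (9.06% of the longer Gimap3 transcript and 9.98% of that of Gimap5), so reads could be split between them, and no other pair shared any. An antisense gene overlaps Gimap1, and whether strand was used in counting is not stated.

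**Figure D2:**
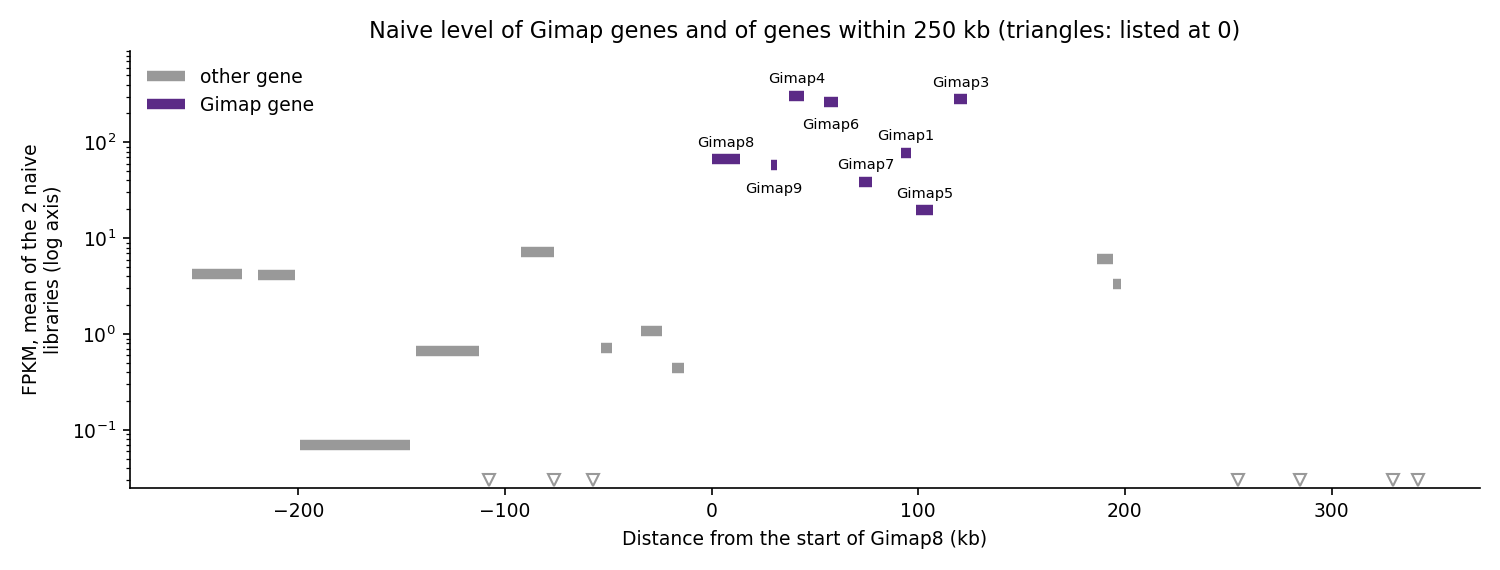
Mean FPKM of the 2 naive libraries (log axis) against distance from the start of Gimap8 in kb, for the 8 Gimap genes (purple bars, as wide as the gene) and the 17 other entries within 250 kb (grey bars, open triangles where listed at 0 in both naive libraries). All Gimap genes lie above all of their neighbours.

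Between genotypes the naive family differed little in total and differed in composition. To compare libraries, FPKM were divided by a factor per library (the median ratio over the 1059 genes that reached an FPKM of 1 in each of the 6), and log2 differences are of scaled FPKM plus 1. The 8 members summed to a scaled FPKM of 324 in WT and 302 in NLRP3KO, a log2 ratio of -0.10 for NLRP3KO over WT. This ratio was 0.32 on the FPKM as deposited, so its direction rests on the scaling. Gimap4, which modulates T cell death, was lower in NLRP3KO (scaled FPKM 71.8 against 105, log2 difference -0.54). It rested on 1132 against 1816 estimated fragments, a ratio of 0.684 with a 95% interval of 0.634 to 0.737. Gimap7, a GTPase that can pair with other family members, was lower too (8.17 against 14.6, -0.77), with 117 against 229 fragments and a ratio of 0.560 (0.445 to 0.703). The intervals are exact and conditional on the summed fragments. They cover counting error only, since the PCR-amplified libraries carried no molecular identifiers.

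The other 6 members lay slightly the other way, from 0.04 for Gimap9 to 0.33 for Gimap5 on the log2 scale. Their fragment ratios ran from 1.03 for Gimap9 (0.864 to 1.22) to 1.31 for Gimap5 (1.02 to 1.69), and that of Gimap3 was 1.13 (1.06 to 1.20). After scaling, the bounds of the 2 libraries were apart for Gimap4 and Gimap7 alone among the 8, as they were, with NLRP3KO lower, for 9.07% of genes. The shift shows without any scaling in ratios within a library: Gimap4 was 1.43 times Gimap3 in naive WT and 0.864 times in naive NLRP3KO, and Gimap7 was 0.926 and 0.501 times Gimap9. Gimap4 has several isoforms (771 to 1804 bases) and transcripts of Gimap6 run from 425 to 3179 bases, so the fragment numbers of both are approximate. No member was 2-fold apart, and 0.21% of the 9985 genes kept were at least 2-fold higher and 2.32% lower (a gene is kept where 1 of the 2 libraries reaches an FPKM of 1). B cell marker genes, 7 of 7 above 0 in both naive libraries, summed to a scaled FPKM of 27.7 in WT and 9.97 in NLRP3KO. The sums were 275 and 97.8 for erythroid markers, 19.96 and 10.4 for CD8 T and NK cell markers, and 9.01 and 6.34 for myeloid markers. The part of these cells in the differences was not tested.

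After 3 days of Th2 culture every member was below its naive level in WT. The family's summed scaled FPKM was 76.2 against 324, or 4.26-fold lower, from 38 estimated fragments against 7233 (fragment ratio 4.09-fold lower, 2.98 to 5.79). The FPKM as deposited, without scaling, were 26.1-fold lower, so the size depends on the scaling and the direction does not. Gimap3 was at an FPKM of 14.1 (7.72 to 20.1), Gimap4 at 9.35, Gimap6 at 5.65, Gimap7 at 4.42, Gimap1 at 2.44 and Gimap8 at 1.89. Gimap5 and Gimap9 were listed at 0, where 3 fragments would have given 2.76 and 4.01. After scaling, 7 of 8 members, Gimap5 and Gimap9 at 0 among them, were at least 2-fold lower than in naive WT, against 31.3% of all genes kept (9.99% higher), and the exception was Gimap7 (log2 difference -0.66). Among the 7, the fragment interval included 1 for Gimap5 (0 to 1.49). The median log2 difference was -2.21 over the members and -0.52 over all genes kept. Scaled by estimated fragments on genes instead, 6 of 8 members were at least 2-fold lower, against 25.8% of genes (14.8% higher). In such bulk libraries fewer cells that make a transcript and less of it per cell cannot be told apart. The B cell, myeloid, CD8 T and NK, and erythroid markers, above 0 in naive cells and nearly all at 0 in culture, move with this difference, and their part in it was not tested. Bounds overlapped between all neighbours in the order of members above 0, although those of Gimap3 lay wholly above those of Gimap8 (0 to 3.78).

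At day 6 the WT family was lower again, at a scaled FPKM of 43.4 from 23 fragments, 7.47-fold below naive (fragment ratio 6.95-fold lower, 4.63 to 11.0). All 8 members were above 0 and all 8 were at least 2-fold lower than in naive WT, against 30.0% of genes (10.3% higher). Scaled by fragments on genes, 6 of 8 were, against 24.6% of genes (14.7% higher). The fragment intervals against naive included 1 for Gimap1 (0.0726 to 1.04), Gimap5 (0.00971 to 2.20), Gimap7 (0.0476 to 1.44) and Gimap9 (0.0399 to 1.21). Gimap3 was at an FPKM of 5.32 (6 fragments), Gimap1 at 3.92 (3), Gimap6 at 3.63 (3), Gimap7 at 3.15 (2), Gimap9 at 2.86 (2), Gimap8 at 2.53 (5), Gimap4 at 1.38 (1) and Gimap5 at 0.986 (1). Gimap4, the most abundant member in naive WT cells, was thus at the level of 1 fragment. From day 3 to day 6 the summed level was 1.75-fold lower, with a fragment ratio of 0.589 whose interval of 0.335 to 1.01 includes no difference. Gimap3, Gimap4 and Gimap6 together had 10 fragments against 29 (ratio 0.336), and the other 5 had 13 against 9 (1.41), a split made after the values were seen. The share of those 3 in the family's FPKM was 76.9% at day 3 and 43.4% at day 6. Of the 7 members kept, 2 were at least 2-fold lower (20.2% of all genes) and 1, Gimap9, higher from 0 (24.1%).

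In NLRP3KO cells the day 3 family was also far below naive. Its summed scaled FPKM was 97.9 against 302, or 3.09-fold lower, from 44 fragments against 6397 (ratio 3.06-fold lower, 2.28 to 4.21). Gimap3 was at an FPKM of 18.9 (10.8 to 26.5), Gimap6 at 11.5, Gimap4 at 10.1, Gimap9 at 8.50, Gimap8 at 3.00, Gimap7 at 1.87 and Gimap5 at 1.17, with Gimap1 listed at 0. Of 8 members, 7 (Gimap1 at 0 among them) were at least 2-fold lower than in naive NLRP3KO, against 32.1% of genes (10.8% higher), and the median was -1.47 against -0.53 over all genes. The exception was Gimap9, at a log2 difference of -0.10 from 5 fragments. Among the 7, the fragment interval included 1 for Gimap5 (0.0085 to 1.92) and Gimap7 (0.0102 to 2.31), each with 1 fragment at day 3. With libraries scaled by their estimated fragments on genes, 4 of 8 were at least 2-fold lower, against 27.3% of genes (14.5% higher).

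The NLRP3KO day 6 library, whose Gimap6 value led to the choice of the family, held 26 Gimap fragments among only 4561 on genes. The family's summed scaled FPKM was 212, which was 1.43-fold below naive NLRP3KO (fragment ratio 1.55-fold lower, 1.06 to 2.37) and 2.16-fold above day 3. Scaled by fragments on genes instead, the sum stood above naive, at a log2 ratio of 0.39, so the direction against naive rests on the scaling. Against naive, 0 members were at least 2-fold higher (9.87% of genes) and 2, Gimap4 and Gimap8, lower (52.8%). Of the 8, 4 lay above naive by any amount on the scaled level, and 0 did on FPKM as deposited. Against day 3, 4 of 8 were higher (21.0%) and 0 lower (51.8%), with a fragment ratio for the family of 1.97 (1.17 to 3.28). Per 10000 fragments on genes, the Gimap genes took 45.9 (naive), 15.2 (day 3) and 8.80 (day 6) in WT, and 47.1, 20.1 and 57.0 in NLRP3KO. The day 6 values thus lie on opposite sides of the day 3 values in the 2 genotypes. The comparisons over time share libraries with each other and with those between genotypes, so they are not independent.

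**Figure D3:**
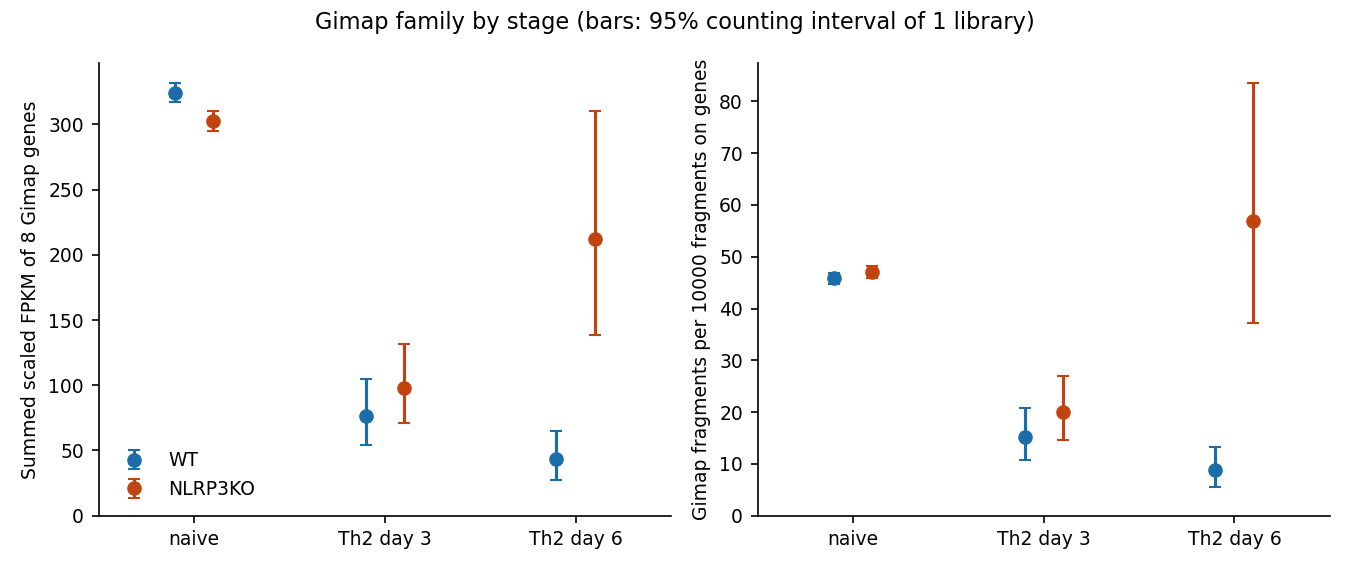
Summed scaled FPKM of the 8 Gimap genes (left) and Gimap fragments per 10000 fragments on genes (right) by stage and genotype. Points are single libraries and bars the 95% counting interval of that library's Gimap fragments. The WT values are highest in naive cells and lowest at day 6, while the NLRP3KO value at day 6 (212 and 57.0) lies above both day 3 values.

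Between genotypes at day 3 the family was not distinguishable at this depth. The sums were 97.9 in NLRP3KO and 76.2 in WT, a log2 ratio of 0.36, and 44 against 38 fragments gave a ratio of 1.30 (0.822 to 2.06). Of 8 members, 2 were at least 2-fold higher (25.4% of the 5749 genes kept) and 2 lower (27.2%), and 3 of these 4 rest on a value listed at 0 in 1 library. The member median of 0.32 compares with 0.11 over all genes. Gimap9 had 5 fragments in NLRP3KO (FPKM 8.50, bounds 1.52 to 15.2), while WT listed it at 0 and 3 fragments there would have given 4.01. Gimap5 had 1 fragment in NLRP3KO and 0 in WT, and Gimap1 had 0 and 2. Gimap7, already lower in naive NLRP3KO, had 1 fragment against 3. Gimap3, the best measured member, had 18 against 17 (ratio 1.19, 0.577 to 2.45), and Gimap6 8 against 5 (1.79, 0.518 to 6.97).

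At day 6 the values that led to the choice of the family were as follows. Gimap6, a member linked to autophagy, stood at 31.6 FPKM (9.56 to 52.6) for NLRP3KO and 3.63 (0 to 6.62) for WT, from 6 and 3 fragments. Gimap3 had 30.9 (10.8 to 50.3) and 5.32 (1.66 to 9.12), from 8 and 6. Gimap4 had 19.1 (0 to 71.9) and 1.38 (0 to 11.8), from 3 and 1. Gimap9 was at 18.7 and 2.86, Gimap1 at 17.1 and 3.92, Gimap7 at 6.87 and 3.15, Gimap5 at 4.29 and 0.986, and Gimap8, which carries several GTPase domains, at 2.20 and 2.53. Of the 8, 7 were higher in NLRP3KO on the scaled level, 6 of them at least 2-fold (20.9% of the 5336 genes kept) and 0 lower (53.8%). After scaling, the bounds were apart for Gimap3 and Gimap6, as they were, with NLRP3KO higher, for 0.225% of genes. For Gimap3 this rests on the scaling factor of 1.13 between these libraries. Its bounds overlap at 1.25, the pair's median ratio over genes at an FPKM of at least 1 in both. These counts restate the contrast from which the family was picked.

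The size of each day 6 difference depends on very few fragments. In the NLRP3KO library 1 fragment was worth an FPKM of 5.26 on Gimap6 and 5.68 on Gimap1, against 1.21 and 1.31 in WT. Gimap1 rested on 3 fragments in both libraries and Gimap5 on 1 in both, so their 2-fold calls come from equal fragment numbers at unequal depth (0.215 in NLRP3KO and 0.931 in WT, relative to WT at day 3). At that depth, 59.2% of the genes kept were listed at 0 in 1 of the 2 libraries, and the median log2 difference was -1.52 over all genes kept but 0.33 over those above 0 in both. The median over the members, all above 0 in both, was 2.03. Summed, the family had 26 fragments in NLRP3KO and 23 in WT. The scaled sums were 212 and 43.4, or 4.88-fold apart, with a fragment ratio of 4.35 (2.39 to 7.98). Without Gimap6 the fragments were 20 and 20 and the ratio was 3.85 (1.97 to 7.54). Gimap3, Gimap4 and Gimap6 had 17 against 10 (6.54) and the other 5 members 9 against 13 (2.67). These intervals describe the contrast from which the family was picked and test nothing.

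**Figure D4:**
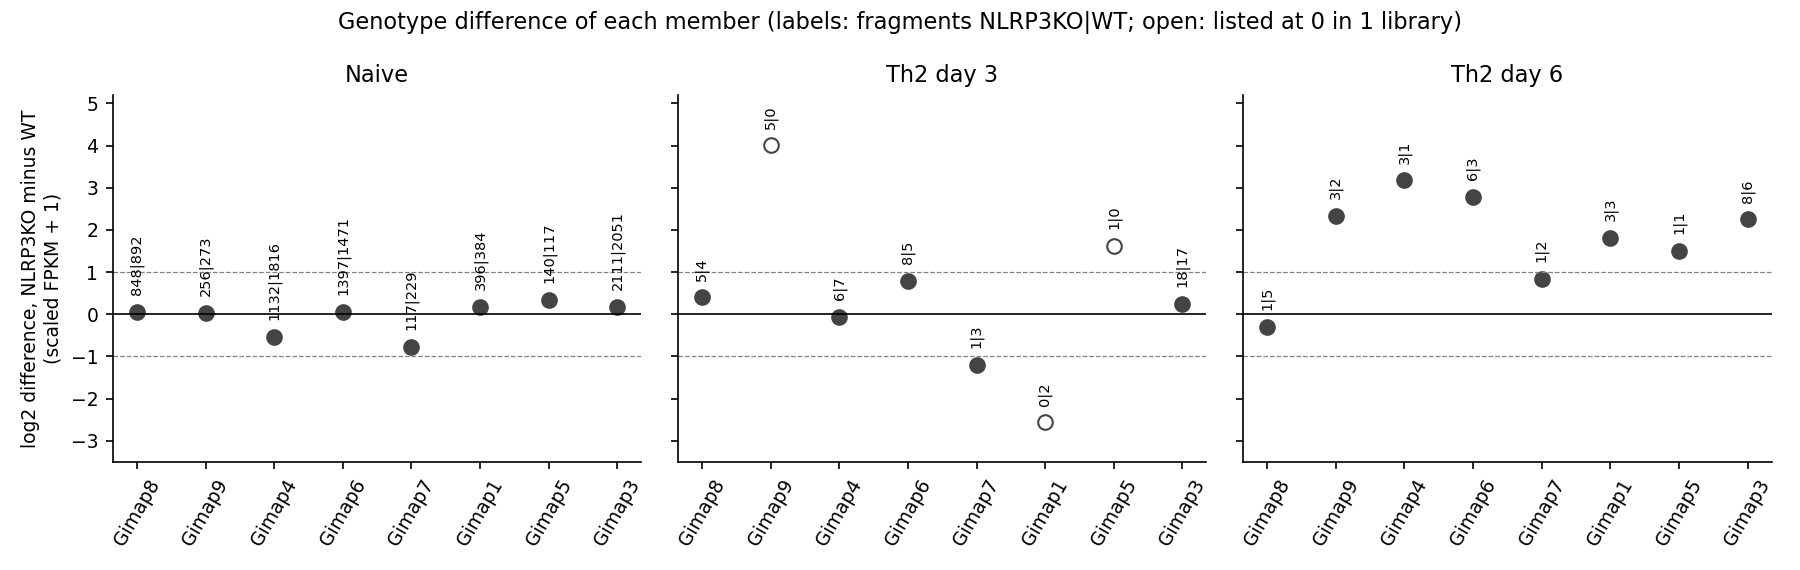
Log2 difference of scaled FPKM plus 1, NLRP3KO minus WT, for each Gimap gene in chromosome order at each stage. Labels give the estimated fragments in NLRP3KO and WT, dashed lines mark 2-fold, and open circles are genes listed at 0 in 1 of the 2 libraries. Naive differences stay within 2-fold, and at day 6 all but Gimap8 lie above 0.

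Other gene lists were set beside the family, each chosen with earlier results of these data known. Genes of naive and quiescent T cells were lower in culture as the Gimap genes were. Their summed scaled FPKM was 4.85-fold lower at day 3 and 6.85-fold lower at day 6 in WT, and 3.41-fold and 3.11-fold lower in NLRP3KO. At day 6 the NLRP3KO level was at least 2-fold above WT for 6 of the 12 kept and below it for 3, where 20.9% of all genes kept were higher and 53.8% lower. The sum was 2.02-fold higher, and between 1.82-fold and 3.01-fold higher under the other scalings. Igfbp4, which binds insulin-like growth factors and marks naive T cells, was at an FPKM of 44.2 in NLRP3KO and 7.39 in WT. The FPKM of the whole list summed to 96.6 and 42.4, so the summed ratio leans on this gene. Tcf7, encoding the transcription factor TCF1, was at 7.42 and 1.71. Lower in NLRP3KO were, among others, Lef1 at 3.34 and 7.68 and S1pr1 at 0 and 3.08. Dapl1 was listed at 0 in all 4 Th2 libraries.

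Of 11 general T cell markers at day 6, NLRP3KO was above WT by 2-fold for 0 and below for 5, the latter near the share of 53.8% over all genes. Their summed ratio was 0.723, and it turned to 1.08 when scaled by fragments on genes. Among them Cd2 was at an FPKM of 15.5 in NLRP3KO and 10.6 in WT, Cd3e at 17.9 and 11.0, Thy1 at 14.6 and 7.81, and Cd3g at 0 and 8.06. Against naive cells these markers were 3.99-fold lower in WT at day 3 and 3.34-fold lower in NLRP3KO, close in size to the 4.26-fold and 3.09-fold of the Gimap sum. T cell activation genes were 5.92-fold and 6.19-fold above naive at day 3 after scaling. On FPKM as deposited they were at 0.963 and 0.852 times naive, so that direction rests on the scaling. Il2ra, a subunit of the interleukin-2 receptor, ran from 5.97 FPKM (naive) to 24.0 (day 3) and 23.4 (day 6) in WT and from 12.3 to 43.2 and 21.6 in NLRP3KO. As deposited, Batf and Tnfrsf4 of the same list were instead lower at day 3 than in naive WT (13.1 against 15.9, and 14.8 against 17.8). They were lower in NLRP3KO too (16.6 against 17.8, and 10.4 against 21.8). After scaling, 7 of 10 activation genes were at least 2-fold higher at day 3 in WT and 0 lower (9.99% and 31.3% of all genes kept). In NLRP3KO these were 6 and 1 (10.8% and 32.1%).

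Of 14 lymphocyte survival genes kept at day 6, NLRP3KO was above WT by 2-fold for 1 and below for 6, against 20.9% and 53.8% of all genes. Their summed ratio was 0.956, and it turned to 1.08 on FPKM as deposited and 1.42 when scaled by fragments on genes. Il2rg, the shared cytokine receptor chain, was at 15.8 in NLRP3KO and 7.25 in WT, and Mcl1, an inhibitor of apoptosis, at 9.23 and 6.37. Jak1 was at 0 and 3.10, and Il7r, the survival receptor of naive T cells, at 0 and 0.579. The interferon-inducible GTPases, which are another GTPase group of immune cells, had 2 of 8 kept higher and 5 lower, near those shares, and a summed ratio of 0.382. Ifi47 was at 0 in NLRP3KO and 6.96 in WT, Igtp at 0 and 2.83, and Gbp4 at 3.56 and 1.64. These ratios come from the same 2 libraries and share their depth.

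**Figure D5:**
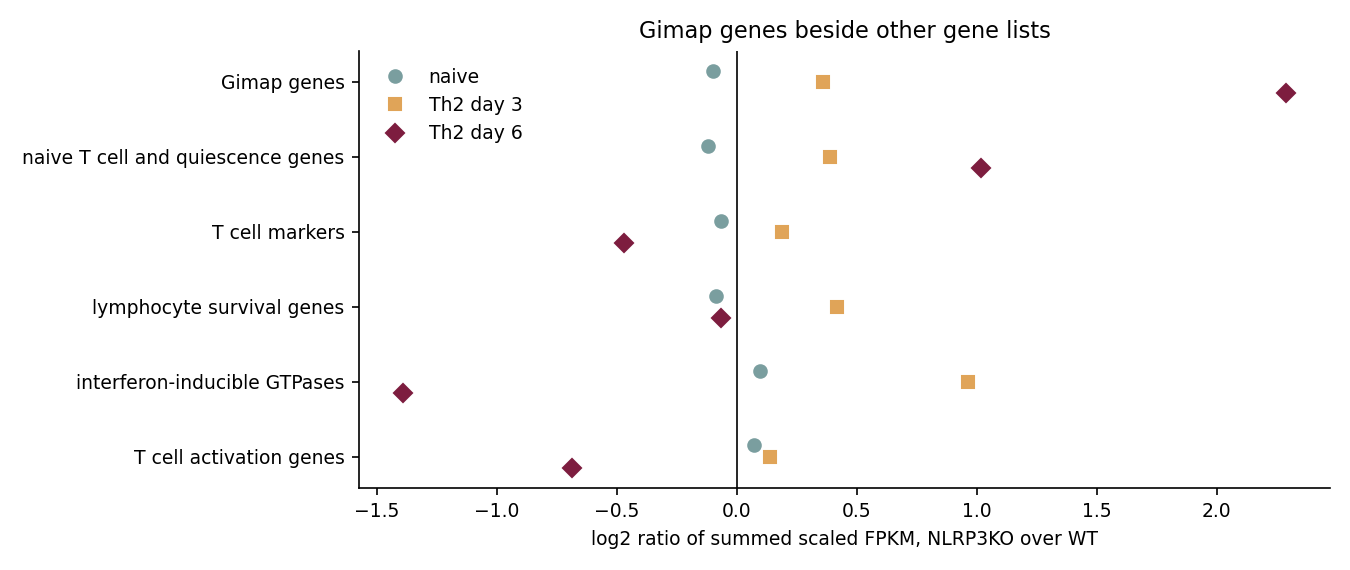
Log2 ratio of summed scaled FPKM, NLRP3KO over WT, for the Gimap genes and 5 other gene lists at each stage. Each point compares 2 libraries. At day 6 the Gimap genes (4.88-fold) and the naive T cell and quiescence genes (2.02-fold, leaning on Igfbp4) lie above 0. The other 4 lists lie below it. Scaled by fragments on genes, the T cell markers (1.08) and lymphocyte survival genes (1.42) lie above it too.

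The genes whose profile over the 6 libraries was most like that of the Gimap sum were Slfn8, Itgb3, Lrrfip1, Trib2 and Mob3a. Likeness was the Euclidean distance between centred log2 profiles of scaled FPKM plus 1, over the 6966 genes that reached an FPKM of 5 in any library. Distances ran from 0.589 for Slfn8, a Schlafen family gene, to 0.681 for Mob3a, a MOB kinase activator gene, and Pearson's r from 0.970 to 0.996 over 6 libraries that differ in depth and preparation. Trib2, a pseudokinase gene, had FPKM of 32.5 (naive), 0.817 (day 3) and 0.877 (day 6) in WT and of 49.3, 2.08 and 5.71 in NLRP3KO. Lrrfip1 had 35.9, 1.41 and 1.01 in WT and 54.8, 1.79 and 4.39 in NLRP3KO. The nearest genes, Slfn8 and Itgb3, were listed at 0 in WT at day 6. In NLRP3KO at day 6 they had FPKM of 2.63 and 1.37, where 1 fragment on Gimap8 gave 2.20. Likeness at that depth thus rests on values near the floor. Of the members, Gimap6 (0.602) and Gimap3 (0.692), which are part of the sum, lay nearest to it. Gimap4 (1.62), Gimap5 (1.82), Gimap8 (1.84) and Gimap7 (2.06) were further off, and Gimap9 (3.14) and Gimap1 (3.27), each listed at 0 in 1 day 3 library, were the furthest.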

How the data were processed

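RNA was sequenced from 6 libraries, 1 for each genotype and stage. For each library the authors deposited a gene table that holds an FPKM, lower and upper bounds and a status, per the file headers. TopHat, Cufflinks and mm9 are named in the submitters' processing notes, but no version of either. The gene annotation is not stated in the sources used here. Of 23700 entries, 285 with too little data were left out. Locus starts count from 0 in the tables and were raised by 1.

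Count tests were not applied, since FPKM are a normalized unit. Libraries were scaled as stated in the text, and a difference is the log2 of scaled FPKM plus 1, which understates differences of low genes. A gene was kept at an FPKM of at least 1 in 1 of the 2 libraries and counted when at least 2-fold apart. Fragments were estimated from the bounds, which step in whole multiples within each library. Relative to WT at day 3 the depth was 7.57 and 5.15 in naive WT and NLRP3KO, 0.787 in NLRP3KO at day 3, and 0.931 and 0.215 at day 6. For each member the largest FPKM per fragment was taken that made its Th2 values above 0 whole fragments within 0.1. That limit was set in the search, and the largest deviation was 0.067, for Gimap4. Naive values were then rounded to whole fragments. A common divisor could remain, and transcript lengths were set beside the outcome only afterwards, so the fragment numbers are inferences. Rn45s, Lars2, Rpph1 and Rmrp were left out of the fragments on genes. A value listed at 0 can be a failed estimate. Such genes enter the 2-fold counts through the pseudocount, and no fold is printed for them.

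The members, lists, comparisons and alternatives were chosen with earlier results of these data known. Genes named beside the members were the entries within 250 kb, up to 4 genes per list with the highest mean FPKM, and the 5 genes nearest in profile. A gene that this rule names is not reported here. Cd4, Cd5, Lck, Lef1 and S1pr1 were added after their values were seen. The scripts ran on Python 3.11.15 with numpy 2.4.6, pandas 2.3.3 and scipy 1.17.1, and were tested on simulated data. Alternatives covered scaling, pseudocount, minimum FPKM and the members summed.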

Additional observations from a re-analysis of the deposited data

Results flagged for a closer look

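Effects of opposite direction, each of at least 0.5 on the log2 scale, stood side by side in several places among members above 0 in all libraries concerned. The differences between the effects were not tested, since each group is 1 library, and every one of them includes the NLRP3KO day 6 library whose Gimap6 value led to the choice of the family. For the Gimap sum, day 6 over day 3 was -0.81 in WT and 1.11 in NLRP3KO, a gap of 1.93. The gap was 2.01 for Gimap3 (-1.45 and 0.56), 3.24 for Gimap4 (-2.49 and 0.75), 1.99 for Gimap6 (-0.70 and 1.29) and 2.04 for Gimap7 (-0.55 and 1.49). The fragment interval did not include 1 for Gimap3 in WT (0.111 to 0.913) and for the NLRP3KO sum (1.17 to 3.28). The interval of the NLRP3KO sum was 1.02 to 3.29 without Gimap6. It describes the library that led to the choice of the family and tests nothing. For every other day 6 over day 3 effect listed above, the fragment interval included 1. Between genotypes, Gimap4 was at -0.54 in naive cells and 3.18 at day 6, a gap of 3.72, with 1 WT fragment at day 6. Gimap7 was at -0.77 in naive cells, -1.20 at day 3 and 0.85 at day 6, gaps of 1.62 from naive to day 6 and 2.04 from day 3 to day 6, with 1 to 3 fragments in each Th2 library.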

How the results depend on the processing

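All values here are log2 ratios of the Gimap sum unless stated. No paired analysis was possible because each group is 1 library, and for the same reason no library could be left out. Of 63 alternative values of the sum, 50 stayed within the counting interval of the reported value and 13 moved beyond it. In naive cells NLRP3KO over WT was -0.10, and became 0.32 on FPKM as deposited, -0.019 when scaled by fragments on genes, -0.0077 with the pair's median ratio over genes at an FPKM of at least 10 (chosen after seeing the data), -0.15 without Gimap6, -0.21 without Gimap3 and Gimap5, and 0.057 as the median over members. Against naive, the FPKM as deposited gave -4.71 (WT) and -4.49 (NLRP3KO) for day 3, then -5.38 and -3.24 for day 6. At day 6 against naive the median over members was -1.60 in WT, where the sum was -2.90, and NLRP3KO went from -0.51 to 0.39 when scaled by fragments on genes and to -1.17 with the pair's median ratio at 10. For that comparison 8 members were at least 2-fold lower on FPKM as deposited and 4 with the pair's median ratio, and 3 were higher and 1 lower when scaled by fragments on genes. Scaling by fragments on genes put 7 members at least 2-fold higher in NLRP3KO at day 6 than at day 3, in place of 4, where 26.8% of genes were higher and 49.4% lower. It put 15.9% of genes higher and 43.6% lower at day 6 than in naive NLRP3KO. On FPKM as deposited, the shares of genes lower and higher than in naive cells were 86.3% and 2.31% in WT and 88.4% and 2.63% in NLRP3KO for day 3, and 84.9% and 2.51% in WT and 91.0% and 2.62% in NLRP3KO for day 6, since the naive factors of 3.05 and 4.08 are not removed, and between the naive libraries 4.75% were higher and 1.95% lower in NLRP3KO. The NLRP3KO day 6 library limits most values, as 3 fragments on a Gimap gene there give an FPKM of 6.59 (Gimap8) to 20.6 (Gimap7).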
